A study of Mus musculus with 6 samples.

Results

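Endothelial flow sensors are the channels, receptors and G proteins with which ECs register the friction of flowing blood. The rule for the 10 genes names them by symbol and uses no measured value: Piezo1, Piezo2, Trpv4, Plxnd1, S1pr1, Gnaq, Gna11, Pkd1, Pkd2 and Kcnj2. The choice was made with earlier results of these data known. All 10 were found among the 47729 genes counted, and all 10 were among the 14625 genes with enough counts to be tested. In these libraries of lung ECs from AngII-infused mice, no member differed between leene-KO and WT beyond the spread between libraries.

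Blood flow opens ion channels in the EC membrane and engages receptors and G proteins, which raise calcium and activate kinases. Steady laminar flow is known to raise the transcription factors Klf2 and Klf4 and, with them, endothelial nitric oxide synthase, encoded by Nos3. Piezo1 and Piezo2 form pores opened by membrane tension, and Trpv4, Pkd1, Pkd2 and Kcnj2 encode further channels or channel partners. Plxnd1 is a semaphorin receptor that also responds to force, S1pr1 is the main sphingosine 1-phosphate (S1P) receptor of ECs, and Gnaq and Gna11 encode alpha subunits of the Gq/11 proteins.

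The comparison was between 3 WT and 3 KO libraries of polyadenylated RNA, sequenced on the Illumina platform with strand information. KO mice carry a deletion of the leene region in all their cells on a C57BL6 background, and leene is a long noncoding RNA named for its effect on Nos3. All mice were 14-week-old males and all received AngII at 1000 ng/kg/min from an osmotic pump for 2 weeks, so that neither group was without AngII. The labels name CD31 as the marker for enrichment, whereas the study's methods name CD144, and the labels describe pooled cells of 3 mice per group. Whether a library holds a mouse or a pool is therefore not settled, n counts libraries, and p-values measure the spread between these libraries, which may be technical. The leene genes are not listed in the counted annotation, so the counts do not check the genotype.

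Total counts ranged from 24464324 to 35184063, and mitochondrial genes took between 37.4% and 54.5% of them. The 15 endothelial markers summed to 2762 to 4801 CPM (read counts scaled to library size) in WT and to 3051 to 4849 in KO, with none of them called. Pecam1 (CD31) was at 313 to 582 CPM and Cdh5 (CD144) at 178 to 753 over the 6 libraries. Other lung cells were also present. The 7 alveolar type II markers summed to 5417, 50642 and 15623 CPM in WT and to between 39317 and 48623 in KO. The 6 markers of club and ciliated airway cells summed to 15377, 40448 and 19950 CPM in WT and to 33599, 56819 and 35662 in KO. In every library both sums were above that of the endothelial markers. The 7 B cell markers summed to 10.7 to 22.9 CPM in WT and 77.2 to 82.5 in KO, and 3 of them (Ms4a1, Cd79a and Fcrla) were called. No marker of the 14 cell type lists was at 0 in every library. In such bulk samples, fewer cells of a type and less RNA per cell cannot be told apart.

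Throughout, CPM are scaled by TMM, which corrects library sizes for composition. The log2 fold changes are KO minus WT from edgeR's quasi-likelihood test, given for the members with their standard error (SE). The p-values are adjusted by the Benjamini-Hochberg method over all genes tested. With this test, 0 of the 10 members had an adjusted p under 0.05, where 0.109% of all genes tested did. At an unadjusted p under 0.05 the count was also 0 of 10, against 10.3% of all genes. DESeq2 and limma-voom called 0 members as well, against 1.21% and 0.178% of the genes they tested. The 3 KO values and the 3 WT values overlapped for all 10 members, where 17.8% of all genes had groups that did not overlap. The fitted values were above 0 for 6 members and below 0 for 4, where 45.9% of all genes were below 0, with a median of 0.04 beside 0.03 over all genes tested. With total counts as library sizes both medians were below 0, at -0.09 and -0.13.

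**Figure D1:**
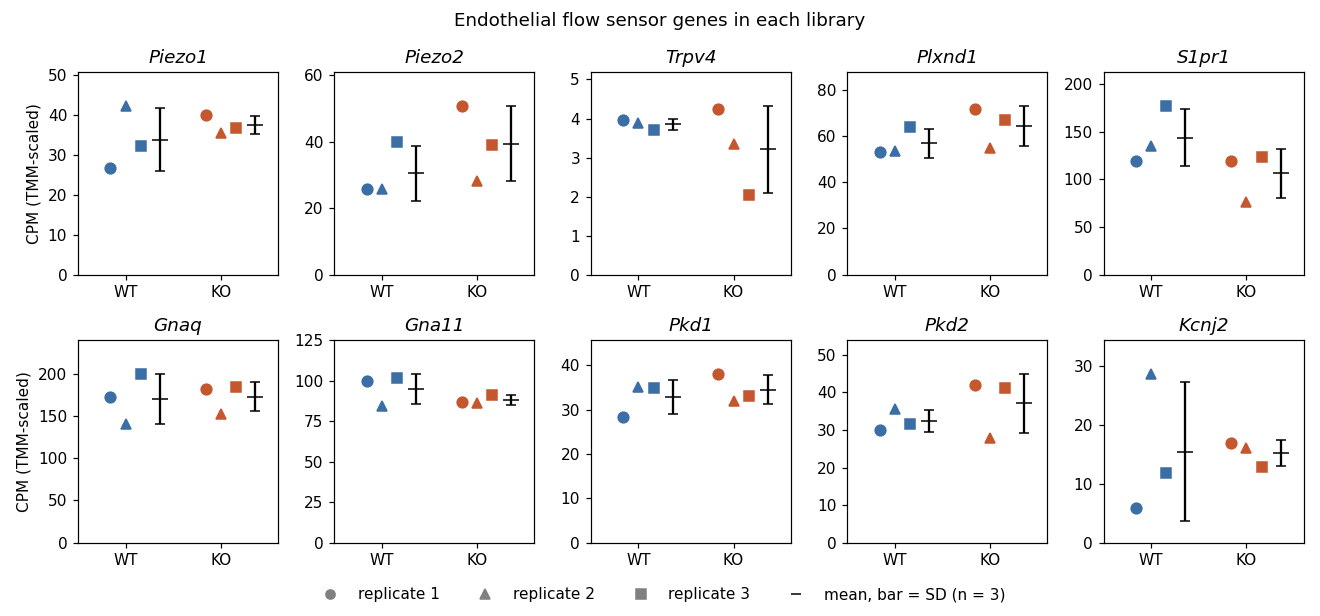
CPM (TMM-scaled, linear axis from 0) of the 10 members in each of the 3 WT (blue) and 3 KO (orange) libraries, with the mean and SD of each group (n = 3) to the right of its points. The groups overlap in every panel, and Kcnj2 ranges from 5.83 to 28.7 CPM within WT.

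Piezo1, the tension-gated channel through which ECs take up calcium under flow, stood at 26.9, 42.4 and 32.2 CPM in WT against 39.9, 35.5 and 36.9 CPM in KO. The lowest and the highest value were both in WT, with the KO values between them. The log2 fold change was 0.15 ± 0.18 (SE, n = 3 per group, adjusted p = 0.769 by edgeR), with a 95% interval from -0.27 to 0.56. Its sign was not stable: without WT replicate 1 it was -0.0012.

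Piezo2, the related channel best known from touch receptors, stood at 25.7, 25.8 and 39.9 CPM in WT against 50.8, 28.3 and 38.9 CPM in KO. KO replicate 1 was the highest library, while KO replicate 2 lay within the WT range. Among the members, Piezo2 had the highest fitted log2 fold change, at 0.37 ± 0.26 (SE, n = 3 per group, adjusted p = 0.628 by edgeR), with an interval from -0.23 to 0.97. Without KO replicate 1 the value was 0.12, and without WT replicate 3 it was 0.59.

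Trpv4, a calcium channel of the vanilloid TRP family, was the least abundant member. It stood at 3.97, 3.88 and 3.70 CPM in WT against 4.255, 3.35 and 2.04 CPM in KO, from 59 to 162 reads per library. The WT libraries were close together and the KO libraries fell on both sides of them. The log2 fold change was -0.27 ± 0.29 (SE, n = 3 per group, adjusted p = 0.745 by edgeR), and at -0.02 without KO replicate 3 it was close to 0. Of the TRPV transcripts per kilobase, Trpv4 made up 37.3% ± 11.4 in WT and 24.3% ± 5.85 in KO (SD, n = 3 each, exact two-sided permutation p = 0.2). Trpv6 made up 26.0% ± 16.2 in WT and 50.3% ± 5.67 in KO (SD, n = 3 each). A share depends on the other genes of its sum, and their part was not tested.

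Kcnj2 encodes the inward rectifier potassium channel Kir2.1, which hyperpolarizes ECs under flow. Its levels were 5.83, 28.7 and 11.8 CPM in WT and 16.9, 16.1 and 12.8 in KO. The WT libraries held both the lowest and the highest value, and their coefficient of variation was 76.7% against 14.3% in KO. The log2 fold change of -0.02 ± 0.50 (SE, n = 3 per group, adjusted p = 0.991 by edgeR) had an interval from -1.18 to 1.13, so that neither a halving nor a doubling is excluded by it. The sign rested on single libraries: it was 0.09 without KO replicate 3, and without WT replicate 2 the value was 0.77 with an adjusted p of 0.185 by edgeR, in a fit that called 5.29% of all genes. Kir transcripts per kilobase were summed over Kcnj2, Kcnj4, Kcnj8, Kcnj10, Kcnj12, Kcnj15 and Kcnj16, without the other Kir genes. Kcnj2 was 17.6% ± 3.17 of this sum in WT and 17.4% ± 1.13 in KO (SD, n = 3 each, exact permutation p = 1), behind Kcnj15 at 75.7% ± 5.86 and 76.3% ± 2.44. Kcnj15 stood at 29.4, 201 and 51.5 CPM in WT against 88.6, 96.0 and 65.1 CPM in KO. Like the alveolar type II sum given above, it was lowest in WT replicate 1 and highest in WT replicate 2. The part of those cells in the Kir shares was not tested.

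Pkd1 and Pkd2 encode polycystin-1 and polycystin-2, which form a receptor and channel complex of the primary cilium. Pkd1 stood at 28.4, 35.2 and 34.8 CPM in WT against 38.1, 32.0 and 33.1 CPM in KO. Pkd2 stood at 30.0, 35.5 and 31.5 CPM in WT against 42.0, 27.9 and 41.3 CPM in KO. For both genes KO replicate 1 was the highest library, and for Pkd2 KO replicate 2 was the lowest. The log2 fold changes were 0.07 ± 0.14 for Pkd1 and 0.20 ± 0.18 for Pkd2 (SE, n = 3 per group, adjusted p = 0.863 and 0.699 by edgeR). The ratio of Pkd1 to Pkd2 per kilobase was 0.727 ± 0.0587 in WT and 0.683 ± 0.127 in KO (SD, n = 3 each, exact two-sided permutation p = 0.5). With 3 libraries against 3, such a permutation test cannot give a p below 0.1.

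The promoters of 3 channel genes are printed because these genes were the most variable (Kcnj2), varied with it (Piezo1) or held the most matches to the core site of the KLF factors (Trpv4). Each runs from 250 bases before to 50 bases after the RefSeq start, in GRCm38.p6, 5′ to 3′ on the strand of the gene. Piezo1 lies at chr8:122551280-122551579 on the minus strand, Trpv4 at chr5:114658372-114658671 on the minus strand and Kcnj2 at chr11:111065914-111066213 on the plus strand. Capitals mark matches to CACCC, read on either strand, so that a match on the other strand appears as GGGTG.
Piezo1: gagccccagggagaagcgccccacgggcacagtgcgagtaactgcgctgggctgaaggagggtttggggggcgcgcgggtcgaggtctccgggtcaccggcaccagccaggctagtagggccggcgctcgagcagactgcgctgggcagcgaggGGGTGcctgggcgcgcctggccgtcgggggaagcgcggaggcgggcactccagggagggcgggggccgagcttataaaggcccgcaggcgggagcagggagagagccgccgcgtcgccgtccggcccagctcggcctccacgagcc
Trpv4: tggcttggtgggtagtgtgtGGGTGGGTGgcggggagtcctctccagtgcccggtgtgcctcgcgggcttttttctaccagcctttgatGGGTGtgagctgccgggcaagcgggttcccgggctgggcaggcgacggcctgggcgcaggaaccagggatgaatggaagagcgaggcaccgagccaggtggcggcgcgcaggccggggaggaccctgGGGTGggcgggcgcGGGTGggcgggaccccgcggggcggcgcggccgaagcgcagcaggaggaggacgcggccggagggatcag
Kcnj2: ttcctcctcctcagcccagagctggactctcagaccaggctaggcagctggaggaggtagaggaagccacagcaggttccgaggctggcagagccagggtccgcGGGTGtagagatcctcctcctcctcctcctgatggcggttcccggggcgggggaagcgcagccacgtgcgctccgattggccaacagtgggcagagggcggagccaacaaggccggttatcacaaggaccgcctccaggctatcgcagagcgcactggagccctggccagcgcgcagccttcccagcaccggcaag

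Of the 8 members with a promoter in the table, 4 held CACCC: Trpv4 with 5 matches and Piezo1, Pkd2 and Kcnj2 with 1 each. This motif was in 57.5% of the 32851 mouse promoters of the same length. The E-box CACGTG was found in Kcnj2, against 7.2% of all promoters. The AP-1 motif TGANTCA and the heat shock element core GAANNTTC were in 0 of the 8, against 7.8% and 7.9%. The 4 motifs were searched on both strands, and they are descriptions of these windows. The promoters of Piezo2 and S1pr1 were not analysed here.

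S1pr1 was the most abundant member per kilobase of exon, while in CPM Gnaq was above it in every library. S1pr1 stood at 119, 135 and 177 CPM in WT against 119, 76.5 and 123 CPM in KO. KO replicate 2 was the lowest library and WT replicate 3 the highest, and WT replicate 1 was level with KO replicate 1. Its log2 fold change of -0.44 ± 0.23 (SE, n = 3 per group, adjusted p = 0.551 by edgeR) was the lowest of the 10, with an interval from -0.98 to 0.11. The value stayed below 0 under the 16 alternatives tried, between -0.64 and -0.27, without an adjusted p under 0.05.

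The 5 S1P receptors differ in the G proteins they engage, and S1pr4 is known from lymphocytes. Per kilobase of exon, S1pr1 made up 86.0%, 82.3% and 87.3% of the S1P receptor transcripts in WT and 76.9%, 69.8% and 78.7% in KO. The KO shares were all below the WT shares, with means of 75.1% ± 4.72 and 85.2% ± 2.57 (SD, n = 3 each). The exact two-sided permutation p was 0.1, the smallest that 3 libraries against 3 allow, and 0.4 after adjustment over the 6 family shares tested. These shares were chosen after the values of the members had been seen. Such separation was not particular to S1pr1. Within their own family sums, S1pr5, Gna14 and Trpv6 had all KO shares above all WT shares, and Plxna2 and Plxna4 all below. Their exact permutation p was also 0.1. S1pr2 was at 4.65% ± 1.35 in WT and 10.2% ± 4.81 in KO, with overlapping groups. S1pr4 was at 3.92% ± 0.763 in WT and 6.94% ± 1.56 in KO, without overlap. Taken alone, S1pr2 had a log2 fold change of 0.79 and S1pr4 of 0.55, with adjusted p of 0.468 and 0.444 by edgeR. The sum of the B cell markers, given above, was higher in every KO library than in every WT library, and the 6 T cell markers summed to 2.62 to 4.45 CPM in WT and 6.69 to 9.20 in KO, with 0 of them called by edgeR. The alveolar type II sum was highest within each group in replicate 2, where the S1pr1 share was lowest. The part of these cells in the S1P receptor shares was not tested.

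**Figure D2:**
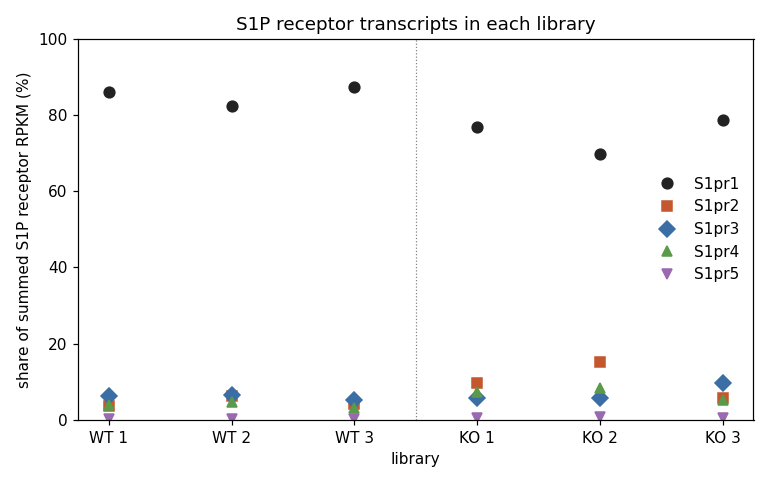
Share (%) of each of the 5 S1P receptors in their summed RPKM in each library, with WT to the left and KO to the right of the dotted line. S1pr1 (black) lies between 82.3% and 87.3% in WT and between 69.8% and 78.7% in KO.

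Plxnd1, the receptor of class 3 semaphorins with which ECs also sense flow, stood at 53.0, 53.3 and 63.9 CPM in WT against 71.4, 54.6 and 67.0 CPM in KO. WT replicates 1 and 2 were the lowest libraries and KO replicate 1 the highest, and the groups overlapped. The log2 fold change was 0.18 ± 0.15 (SE, n = 3 per group, adjusted p = 0.673 by edgeR), with an interval from -0.17 to 0.53. Plexin transcripts per kilobase were summed over Plxnd1, Plxna1, Plxna2, Plxna4, Plxnb1 and Plxnb2, without the other plexins. Plxnd1 made up 24.2% ± 8.27 of this sum in WT and 17.98% ± 2.53 in KO (SD, n = 3 each, exact permutation p = 0.4). Plxnb2 made up 37.0% ± 9.14 in WT and 48.2% ± 3.89 in KO, and its part in the Plxnd1 share was not tested.

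Gnaq and Gna11 pass signals from receptors to phospholipase C beta. Gnaq stood at 172, 140.0 and 199 CPM in WT against 182, 153 and 184 CPM in KO. Gna11 stood at 99.6, 84.5 and 101 CPM in WT against 86.8, 86.3 and 91.5 CPM in KO. For Gnaq the KO values lay inside the WT range, as did those of Gna11. The log2 fold changes were 0.02 ± 0.18 for Gnaq and -0.11 ± 0.13 for Gna11 (SE, n = 3 per group, adjusted p = 0.979 and 0.769 by edgeR), with intervals from -0.40 to 0.44 and from -0.42 to 0.20. The ratio of Gnaq to Gna11 per kilobase was 1.18 ± 0.106 in WT and 1.29 ± 0.111 in KO (SD, n = 3 each, exact permutation p = 0.2). Of the summed Gnaq, Gna11, Gna14 and Gna15 transcripts per kilobase, Gnaq made up 48.4% ± 1.81 in WT and 49.9% ± 1.98 in KO. Gna11 made up 41.2% ± 2.19 and 38.6% ± 1.85 (SD, n = 3 each, exact permutation p = 0.4 for Gnaq and 0.2 for Gna11). Gnaq and Gna11 were both among the more abundant members, and no 50-base stretch of the Gna11 transcripts was found in another gene.

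**Figure D3:**
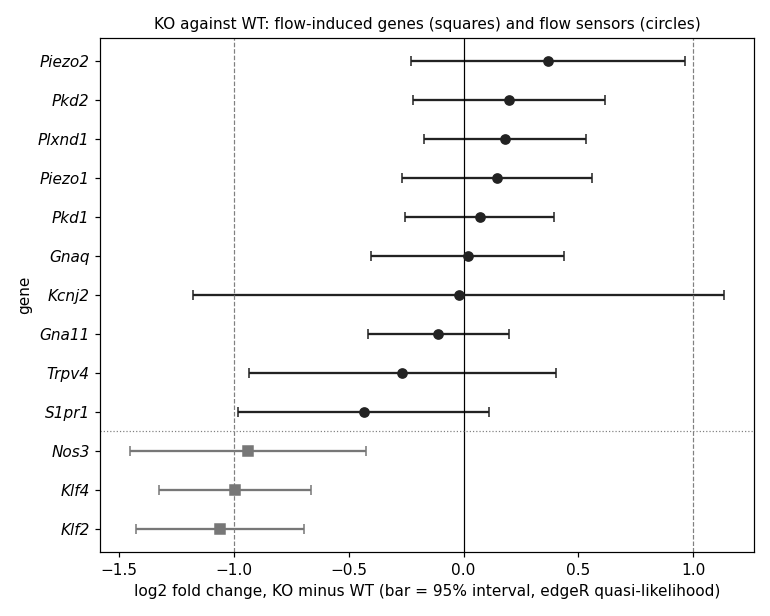
Log2 fold change (KO minus WT) of each member (circles) with its 95% interval from edgeR's quasi-likelihood test over 3 WT and 3 KO libraries. Grey squares below the dotted line are Klf2, Klf4 and Nos3, which are not members, and dashed lines mark a halving and a doubling. All 10 intervals of the members hold 0, and that of Kcnj2, from -1.18 to 1.13, is the widest of the 10.

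The intervals of 9 members excluded both a halving and a doubling in KO, and Kcnj2 was the exception. Smaller differences lie within the intervals given for each gene, and a p above the threshold does not show that the levels were equal. The fitted sign held under all 16 alternatives for Piezo2, Trpv4, S1pr1 and Gna11, and it turned under at least 1 alternative for the other 6.

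Levels between genes were compared per kilobase of exon (RPKM). S1pr1 led with a mean of 41.0 RPKM over the 6 libraries, followed by Gnaq with 27.7 and Gna11 with 22.4. The ranges of neighbours in this group overlapped, although S1pr1 was above Gnaq and Gnaq above Gna11 in 6 of 6 libraries. Plxnd1 followed with 8.29 RPKM, apart from Gna11 above it and from Piezo1 below it. Piezo1 with 3.59, Pkd2 with 3.41, Kcnj2 with 2.82, Piezo2 with 2.397 and Pkd1 with 2.37 RPKM overlapped with their neighbours in the order. Trpv4 was lowest, with 0.866 RPKM and no overlap with Pkd1. Among all genes tested, S1pr1 was at the 96.1 percentile and Trpv4 at the 25.7 percentile of the mean level.

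**Figure D4:**
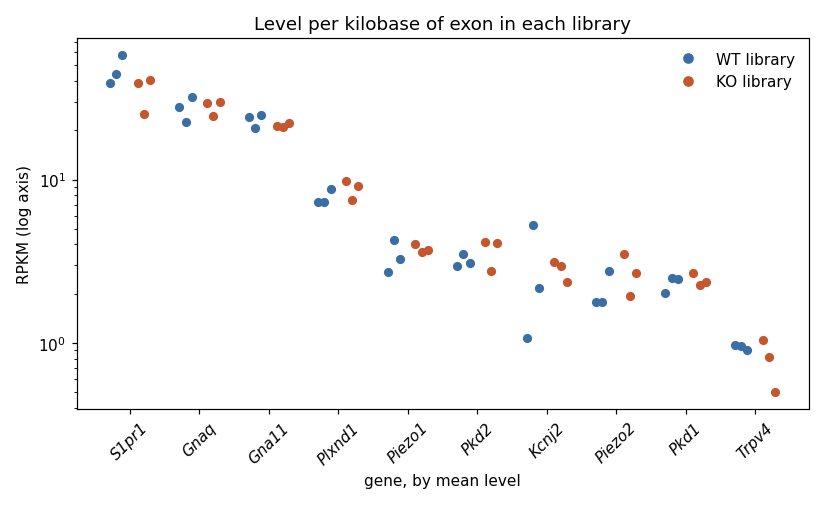
RPKM of the 10 members in each library on a log axis, ordered by their mean over 3 WT (blue) and 3 KO (orange) libraries. S1pr1, Gnaq and Gna11 stand above the other members and Trpv4, with a mean of 0.866, stands below them.

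The members were also compared with each other over the 6 libraries. Of the 45 pairs, Piezo2 and Plxnd1 had the highest Pearson r, at 0.985, with a Spearman rho of 0.943. Their permutation p were 0.00833 and 0.0167, or 0.25 and 0.375 after adjustment over the 45 pairs, and r was 0.974 without WT replicate 1 and KO replicate 1. Piezo1 and Kcnj2 followed with an r of 0.946 and a rho of 0.943 (permutation p = 0.0111 and 0.0167, adjusted 0.25 and 0.375). Their r was 0.735 without WT replicates 1 and 2. Gna11 had the strongest negative r, at -0.850 with Piezo1 and -0.818 with Kcnj2. Their rho were -0.771 and -0.886, with permutation p for r of 0.0444 and 0.025 and for rho of 0.103 and 0.0333, adjusted to 0.5 and 0.375 for r and to 0.656 and 0.5 for rho. Without 2 libraries each, these r were -0.808 and -0.855. Groups of 3 libraries are too few for an r within WT or KO. No pair passed the adjustment.

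Markers of other cells moved with these pairs. WT replicate 1 was lowest and WT replicate 2 highest in Piezo1, in Kcnj2 and in the alveolar type II marker sum. Over the 6 libraries, r with the alveolar type II markers was 0.930 for Piezo1, 0.889 for Kcnj2 and -0.864 for Gna11. With the club and ciliated markers r was 0.767, 0.765 and -0.887, and with the alveolar type I markers 0.688, 0.767 and -0.893. The 5 neutrophil markers, which summed to 70.0 CPM in WT replicate 2 and to 27.0 to 39.6 in the other libraries, had an r of 0.851 with Piezo1 and 0.901 with Kcnj2. Piezo2 and Plxnd1 instead followed the 5 markers of aerocytes, the capillary ECs that face the alveoli, with r of 0.987 and 0.997. They also followed the arterial EC markers with 0.938 and 0.960, and the endothelial markers with 0.932 and 0.910. For the general capillary EC markers r was 0.885 and 0.870, and for the lymphatic EC markers 0.334 and 0.318. Pkd1 had an r of 0.950 with the macrophage markers. S1pr1 had an r of 0.877 with the summed lymphatic EC markers, of which Lyve1 took 126 to 357 CPM, whereas Prox1, the defining factor of these cells, was highest in KO replicate 2 at 3.64 CPM, where S1pr1 was lowest. These coefficients are descriptions over 6 points that share depth and scaling, and the part of the other cells in the members' levels was not tested.

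The genes most like each member over the 6 libraries were read from 12069 candidates. Piezo1 was followed most closely by Lrp5, Galnt4 and Plxna4 (Pearson r from 0.991 to 0.995) and Kcnj2 by Mettl21a, Adam8 and Pcdhgb7 (0.990 to 0.993). Trpv4 was followed by Ssh3, Gtf3c3 and Mroh1 (0.978 to 0.983), Gnaq by Pcbp3, Fez2 and Cpped1 (0.991 to 0.998) and Gna11 by Ddx23, Crtc2 and Tpr (0.991 to 0.998). Pkd1 was followed by Rilpl2, Gnpat and Csf2ra (0.991 to 0.997) and Pkd2 by Ppif, Bola1 and Foxred1 (0.978 to 0.983). AU020206 was near both Plxnd1, with Agfg1 and Tmem47, and Piezo2, with Pcdhac2. Apln, an aerocyte marker, was first for Piezo2 with an r of 0.993. Edn1, which encodes the vasoconstrictor endothelin-1, was second for S1pr1 with 0.993, after Vwa8 and before Msn with 0.986. None of these neighbours was called. For each of the 10 members the 3 nearest genes had an r of at least 0.978. They were picked as the highest of 12069 candidates over 6 libraries, a selection that by itself yields high r. Whether a neighbour shares regulation with its member was not tested.

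The pathways around the sensors were described with 134 further genes in 11 lists, of which 120 were tested. The quasi-likelihood test called 0 of them. DESeq2 called 3, all lower in KO: Klf2, Klf4 and Nos3. At an unadjusted p under 0.05 there were 12 higher and 7 lower genes of the 120, where 5.62% and 4.68% of all genes tested were higher and lower. The median log2 fold change over the 120 was 0.16, beside 0.03 over all genes.

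Among the 12 genes raised by laminar shear, 5 had all KO values below all WT values: Klf2, Klf4, Nos3, Slc9a3r2 and Heg1. Klf2 stood at 292, 266 and 255 CPM in WT against 121, 124 and 145 CPM in KO. Klf4 stood at 224, 221 and 215 CPM in WT against 120, 103 and 108 CPM in KO. Nos3 stood at 44.3, 47.0 and 29.4 CPM in WT against 16.8, 25.2 and 21.0 CPM in KO. Among all genes tested, 9.20% had KO below WT without overlap. The study had already named Klf2, Klf4 and Nos3 as lower in KO from these data, so their values here are not independent of that result. By qPCR it also reported them as lower in KO hearts. Overexpressed human LEENE was reported to raise them in KO lung ECs and in aortic rings. The log2 fold changes of these 3 genes were -1.06, -0.996 and -0.937, with adjusted p of 0.0852, 0.0721 and 0.274 by edgeR and of 8.37e-08, 1.82e-08 and 0.0240 by DESeq2. The other shear-raised genes, such as Thbd, Tek and Tie1, were not called by either tool. Slc9a3r2, a scaffold protein, stood at 407, 391 and 318 CPM in WT against 276, 243 and 285 CPM in KO. Its fitted log2 difference was -0.47, and it was the only other of the 12 with an unadjusted p under 0.05. At this threshold 4.68% of all genes tested were lower. Heg1, a junction receptor, ranged from 337 to 344 CPM in WT and from 225 to 292 in KO, and its fitted log2 difference was -0.35 (adjusted p = 0.524 by edgeR). The list had a median of -0.07.

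Of the 10 genes lowered by laminar shear, none was called. Angpt2, the Tie2 antagonist, had a log2 fold change of 1.149 and Ccn2, a matrix protein, of -0.84 (adjusted p = 0.383 and 0.430 by edgeR). In the junction complex, Kdr (VEGFR2) stood at 93.3, 108 and 138 CPM in WT against 264, 161 and 195 CPM in KO, without overlap, and 8.59% of all genes had KO above WT in this way. Its log2 fold change was 0.87 (adjusted p = 0.313 by edgeR), and Fyn, a Src family kinase, was at -0.53 (adjusted p = 0.341). The list as a whole had 1 gene higher and 1 lower at an unadjusted p under 0.05, of 11 tested, beside 5.62% and 4.68% of all genes.

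In the list of other mechanosensitive channels and receptors, 3 of 17 tested genes were higher at an unadjusted p under 0.05. For this and the following lists, 5.62% of all genes tested were higher and 4.68% lower at that threshold. The 3 were Agtr1a, an AngII receptor, with a log2 fold change of 0.88, Tmem63a, a tension-gated channel, with 0.70, and P2rx4, an ATP-gated channel, with 0.86. Rgs2, which shortens Gq signals, was at 0.46 and Plcb4 at -0.26, and 1 of 19 genes of the Gq/11 list passed the unadjusted threshold. The S1P list had 3 higher and 1 lower of 12, with a median of 0.57: S1pr2, S1pr4 and Mfsd2b, an S1P exporter, at 1.08, and Sphk1, an S1P-making kinase, at -0.63. Mfsd2b had only 28 to 99 reads per library and overlapping groups. It stood at 1.32, 0.998 and 1.31 CPM in WT against 4.255, 2.13 and 1.31 CPM in KO. The semaphorin list had 2 higher of 14, with Sema3d at 0.68 and Sema3a at 0.61. Of the glycocalyx and integrin list 1 of 12 passed, Gpc1 at 0.57, and Itgav was at 0.58. None of the tested polycystin partners, Kir relatives or TRPV relatives passed. Their smallest p belonged to Arl13b at -0.20 and Bicc1 at 0.21, to Abcc9 at 0.88 and Kcnj8 at 0.48, and to Trpv2 at -0.26 and Trpv6 at 1.03. Several of these genes moved with the alveolar type II sum, given above, which was lowest in WT replicate 1. Sgpp2, an S1P phosphatase, stood at 6.54, 77.1 and 25.8 CPM in WT against 58.3, 61.7 and 51.5 CPM in KO, and Sgpl1, the S1P lyase, at 26.2, 67.8 and 32.7 against 55.0, 85.6 and 53.1. Tmem63a, at 25.9, 52.7 and 28.8 against 58.7, 65.0 and 51.5, and P2rx4, at 77.1, 188 and 97.9 against 213, 286 and 157, were also lowest in WT replicate 1 and highest within their group in replicate 2. The part of alveolar type II cells in these lists was not tested. All of the genes named here had adjusted p above 0.05 by edgeR and DESeq2. With total counts as library sizes, the medians of the polycystin partners, at -0.12, and of the shear-lowered list, at -0.05, were below 0, in place of 0.0048 and 0.03.

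**Figure D5:**
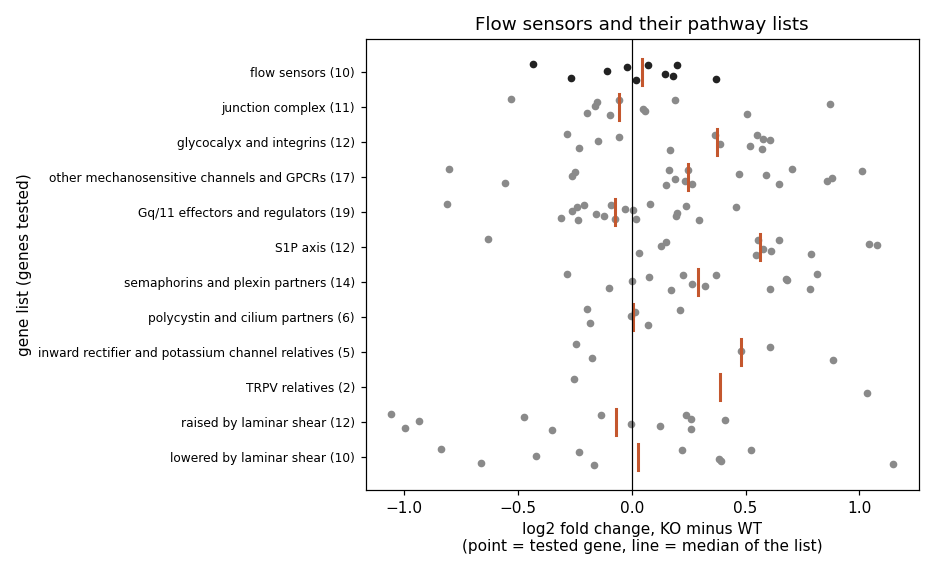
Log2 fold change (KO minus WT) of each tested gene of the flow sensors (black) and of the 11 pathway lists (grey), with the list's median as an orange line and the number of tested genes in brackets. The members lie between -0.44 and 0.37, and Klf2, Klf4 and Nos3 lie at -0.937 or below in the shear-raised list.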

How the data were processed

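RNA was measured in 3 WT and 3 KO libraries of lung ECs, grouped by the sample titles. The authors deposited raw read counts per gene, made per the labels and file headers with bcl2fastq 2.18, STAR 2.5.4b and featureCounts of Subread 2.0.0 on Ensembl annotation of GRCm38, from uniquely aligned reads on the strand of the library kit. Antisense exons of Ctu2 at Piezo1 and Tsc2 at Pkd1 are thereby told apart. Reads from near-identical copies are dropped, but at most 0.519% of any member's 50-base stretches are shared with another gene.

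Of 47729 genes, 47224 had a symbol from GENCODE. Genes were filtered with filterByExpr, scaled by TMM and tested with glmQLFit and glmQLFTest of edgeR 4.0.16 in R 4.3.3, with genotype as the only term, after a trial on simulated data. DESeq2 1.42.0 and limma 3.58.1 (voom) were alternatives, besides other scalings, filters, the replicate block and leaving out each library. RPKM used exon lengths of the count tables. Pearson correlations used log2(CPM + 0.5). Total counts from 24464324 to 35184063 set the counting precision, to which the spread between libraries adds. Promoters came from RefSeq (GRCm38.p6).

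The members and lists were chosen with earlier results of these data known. Genes were named by rule: the members, Klf2, Klf4 and Nos3, list genes called by either tool and the 2 with the smallest p per list, the 3 genes most like each member, and the first 2 of each marker list, most of which are given only in the sums. Names outside it were chosen after their values were seen: Kcnj15, Plxnb2, Plxna2, Gna14, S1pr5, Thbd, Tek, Tie1, Fcrla, Slc9a3r2, P2rx4, Mfsd2b, Sphk1, Heg1, Sgpp2, Sgpl1, Prox1 and Lyve1. Genes that only define the Kir, plexin and Gq sums are also named.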

Additional observations from a re-analysis of the deposited data

How the results depend on the processing

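The count of 0 members called held under every alternative tried. Over all genes, the 16 calls became 187 with DESeq2, 26 with limma-voom, 26 with RLE, 31 with upper-quartile scaling, 123 with total counts, 114 with total counts outside the mitochondrial genome, 52 with the summed endothelial markers as library size, 152 without a filter on low counts and 1506 at an unadjusted p under 0.05. Leaving out 1 library gave 0 to 791 calls, the most without WT replicate 2 (5.29% of the genes tested) and 0 without any 1 of the KO libraries. Of the pathway list genes, 3 were called by DESeq2 and 19 at an unadjusted p under 0.05.

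The fitted sign of Piezo1 turned to -0.031 outside the mitochondrial genome and -0.014 with the endothelial markers, and its values without 1 library ran from -0.0012 to 0.31. Plxnd1 turned to -0.032 outside the mitochondrial genome and Pkd2 to -0.0089 with the endothelial markers. Gnaq turned to -0.014 with DESeq2, -0.010 with RLE, -0.016 with upper-quartile scaling, -0.15 with total counts, -0.21 outside the mitochondrial genome, -0.14 with the endothelial markers, and -0.14 to 0.12 without 1 library. Pkd1 turned to -0.078, -0.13 and -0.088 under the last 3 of these scalings, and ran from -0.030 to 0.10 without 1 library. Kcnj2 turned to 0.28 with limma-voom and 0.25 with the replicate block, and ran from -0.43 to 0.77 without 1 library. The cause was not tested. The median of all genes was 0.03 with TMM, and -0.13, -0.18 and -0.13 with total counts, total counts outside the mitochondrial genome and the endothelial markers. Taken relative to the median of the same scaling, 9, 9 and 10 of the 10 members kept the sign they had relative to the TMM median. That sign can differ from the fitted sign, as for Gnaq, whose 0.02 with TMM lay below the median of 0.03.

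The replicate block gave 0 calls over all genes. Correlations of the deviations of same-numbered samples were -0.098, 0.286 and 0.0134, beside -0.242 to 0.259 for different numbers. They exceeded 0.1 for replicate 2 only, so the number was not taken as a pairing. Counting depth was lowest for Trpv4, with 59 to 162 reads per library, while the interval was widest for Kcnj2.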
